A study of Gallus gallus with 14 samples.

Results

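RNA of clathrin-depleted DKO-R cells was compared with RNA of clathrin-depleted DKO-S cells on 4 of the 14 EST microarrays of the series, 2 arrays of each line. The arrays were matched by treatment, culture and dye, so that DKO-R and DKO-S cells grown with doxycycline (DOX) could be compared in the same dye. This was Cy3 for culture A and Cy5 for culture B. Arrays of the other dye orientation exist for both lines and were left out of the main comparison. In that orientation the DKO-S arrays were weak. The filter on spot confidence kept 2.11% of their clone spots in culture A and 23.2% in culture B. On the DKO-R arrays of that orientation it kept 68.8% and 72.3%. The compared groups were thus DKO-R cells with DOX (cultures A and B) and DKO-S cells with DOX (cultures A and B), each co-hybridised with the same culture grown without DOX. Both lines descend from the chicken pre-B cell line DT40, both lack the endogenous clathrin heavy-chain genes, and both carry clathrin heavy chain under a Tet-Off promoter, with or without DOX. DKO-R was itself derived from DKO-S, and each line was represented by a single isolate, so that a difference between the lines is a difference between these isolates. DT40 cells with DOX, on a further 2 arrays of the same cultures and dyes, have no Tet-Off transgene and served as the parental line. Neither the labels nor the array methods give the concentration or duration of DOX in these cultures, and nothing says what distinguishes cultures A and B beyond the label of biological replicate.

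Clathrin forms the coat of vesicles that carry receptors such as the transferrin receptor from the plasma membrane and sort cargo at the trans-Golgi network. In a Tet-Off cell a drug-sensitive activator drives the transgene, and DOX stops its transcription. DKO-S cells die by apoptosis when clathrin is repressed, DKO-R cells are less sensitive, and the comparison asked which transcripts differ between the lines in that state. DT40 cells are B-lineage cells that make IgM. The J chain, encoded by IGJ, links IgM monomers into the secreted polymer, and CXCR4 is the receptor of the chemokine SDF-1.

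All directions given here follow the labels of the DOX arrays. On 2 further arrays (the direct arrays), DKO-R and DKO-S of culture A without DOX were hybridised together in both dye orientations. Among named clones with values on both sets, those with the same sign on both direct arrays ran, with a single exception, the other way. The exception, SLC26A9, was at -0.65 and -0.58 on the direct arrays, and at -0.84 (culture A) and 0.12 (culture B) with DOX. For the named clones with the same sign on both direct arrays, the direction the study gives is that of the direct arrays. If the line labels of the DOX arrays were exchanged, the sign of each DKO-R minus DKO-S difference on those arrays would turn. The values against DT40, the DOX responses and the dye ratios of those arrays would change lines. The ratios of the direct arrays would stay. The clathrin clone is not paired with a name in the files used here, so clathrin could not check the DOX labels. Clathrin gives no check of which line is DKO-R, as both lines carry it under the Tet-Off promoter. DKO-R and DKO-S lay on different arrays, so that line and array cannot be told apart in any value except on the direct arrays. Of 26419 clone spots, 60.9% to 64.4% on the DKO-R arrays and 57.5% to 67.4% on the DKO-S arrays reached a confidence of 0.30. Median intensity with DOX was 1662 (culture A) and 625 (culture B) in DKO-R, and 2568 (culture A) and 917 (culture B) in DKO-S, against 157 to 446 in blank and buffer spots of the same channels. Of 12856 clones, 7163 were measured on all 4 arrays. A further 170 were measured on both DKO-R arrays and neither DKO-S array, and 173 the other way round, and these have no value below. Of the 7163 clones, 1937 (27%) had spots that reached 0.30 on some of the 4 arrays and not on others, so that their levels are means over different spots. The number of arrays limits the precision: the median standard error of a difference was 0.33 on the log2 scale.

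With DOX, the largest differences between DKO-R and DKO-S lay in a small number of clones, among them IGJ and unnamed clones whose IDs begin with DT40subNB. No clone passed an adjusted p of 0.15 in either direction (0 of 7163 clones, 0%, limma with Benjamini-Hochberg adjustment). The smallest adjusted p was 0.158. At an unadjusted p under 0.05 there were 667 clones, 9.31% of those tested, 368 higher (5.14%) and 299 lower (4.17%) in DKO-R. By size, 103 clones (1.44%) were 2-fold or more higher in DKO-R in both cultures and 53 (0.74%) were 2-fold or more lower. Averaged over only the spots kept on all 4 arrays, 96 of the 103 had a value and 92 were still 2-fold or more higher in both cultures, and 42 of the 53 had a value and 36 were still lower. The same test with the DT40 channels added to estimate the spread called 112 clones (1.74% of 6433), 75 higher (1.17%) and 37 lower (0.575%), and a confidence minimum of 0.60 called 128 of 3489. Leaving out 1 culture in the fit with DT40 moved the 112 in either direction. In those fits 1 line has a lone channel. The prior had 81.3 degrees of freedom without DKO-S culture B and was infinite in the others. Clones then shared nearly a single spread, so no count is given for them. Over the 7163 clones the differences of cultures A and B correlated with r = 0.24 (a description across clones, which share arrays and are not replicates), and 4051 clones (56.6%) had the same sign in both.

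**Figure D1:**
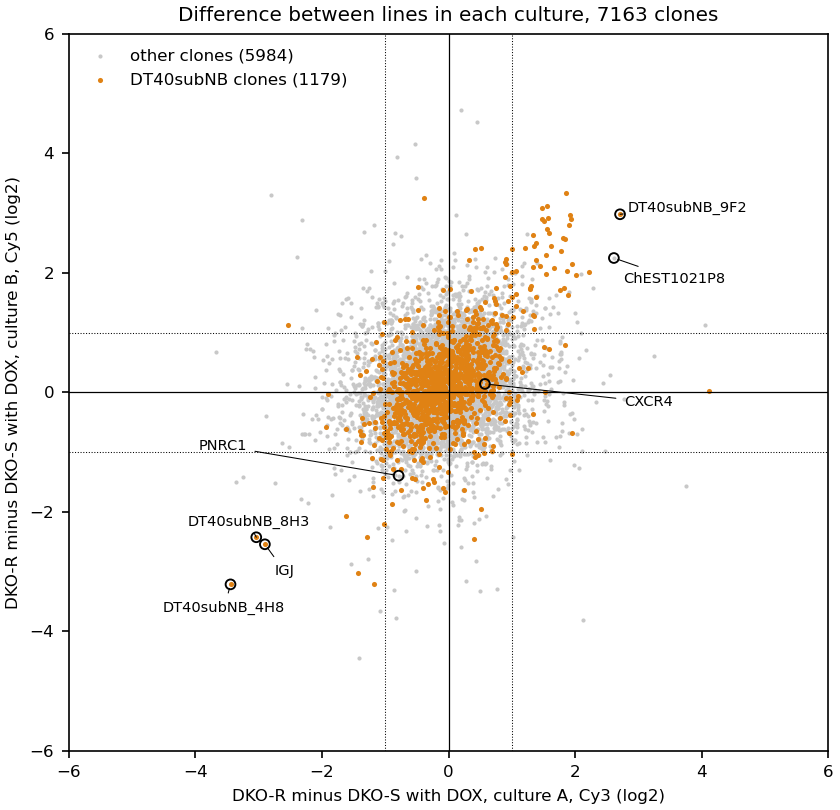
Each point is a clone, with its DKO-R minus DKO-S log2 difference with DOX in culture A (x axis, Cy3) against culture B (y axis, Cy5), and dotted lines at 2-fold. IGJ, DT40subNB_4H8 and DT40subNB_8H3 sit alone at the lower left, DT40subNB_9F2 and ChEST1021P8 at the upper right, and CXCR4 lies inside the central cloud.

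IGJ, the J chain (clone DT40subNB_9D2), had the largest difference of the named genes. Its normalised log2 intensity was 10.60 (culture A) and 10.32 (culture B) in DKO-R cells with DOX, and 13.50 and 12.86 in DKO-S cells with DOX. The lines did not overlap, and both DKO-R values lay below both DKO-S values by more than 2 log2 units. The mean difference was -2.72 ± 0.33 (SE, n = 2 cultures per line, 95% interval -3.50 to -1.94), 6.60-fold lower in DKO-R, with an adjusted p of 0.194 in limma. In RNA of a whole culture, fewer cells that express a gene and less RNA of it per cell cannot be told apart. With the DT40 channels in the fit the difference was -2.74 and its adjusted p 0.00278 (limma). In the normalisation over 6 arrays IGJ had 10.54 and 10.27 in DKO-R, 13.46 and 12.82 in DKO-S, and 10.61 (culture A) and 11.003 (culture B) in DT40 cells, where DKO-R and DT40 lay close together and DKO-S above both. In that fit DKO-R was at -0.40 relative to DT40 (adjusted p = 0.639, limma) and DKO-S at 2.33 (adjusted p = 0.00317, limma). XBP1, the transcription factor of antibody-secreting cells, did not follow IGJ in the mean of its 4 spots. Its levels were 11.65 and 12.54 in DKO-R and 11.12 and 13.03 in DKO-S, overlapping, with a difference of 0.03 (interval -0.87 to 0.92). The 4 spots were unlike, with raw intensities of 1511, 1559, 9774 and 11207 in DKO-S culture A with DOX. AP1B1, CXCR4, ITGB5 and CHTOP also have spots of unlike intensity, and their levels below are means over such spots. The spots of these clones and of XBP1 were unlike in dye ratio too. In DKO-S culture A, raw Cy3 and Cy5 intensities were 3497 and 1564 at an AP1B1 spot, and 5573 and 14760 at another.

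Of the clones without a gene name, 4 are given here, chosen after their values were seen as those with the smallest p in each direction. The channels that chose them also enter their values against DT40, so the p values against DT40 describe these clones and test nothing. The same holds for IGJ, singled out by the largest difference of the named genes. DT40subNB_4H8, the clone with the smallest p of all, had 10.42 and 10.36 in DKO-R with DOX and 13.86 and 13.57 in DKO-S with DOX. This was 10.1-fold lower in DKO-R (-3.33, adjusted p = 0.158, limma), with no overlap. Relative to DT40, DKO-R was lower by 1.19 (adjusted p = 0.0837, limma) and DKO-S higher by 2.14 (adjusted p = 0.00437, limma), so that DT40 cells, at 11.57 and 11.49, lay between the lines. DT40subNB_8H3 had 11.21 and 11.10 in DKO-R and 14.25 and 13.53 in DKO-S. Its difference of -2.73 (adjusted p = 0.194, limma) was of the size seen for IGJ, and like IGJ its DT40 levels (11.09 and 11.46) were near those of DKO-R.

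In the opposite direction, DT40subNB_9F2 had 14.70 and 14.55 in DKO-R with DOX and 11.99 and 11.57 in DKO-S with DOX. It was 7.18-fold higher in DKO-R (2.84 ± 0.33, SE, interval 2.07 to 3.62, adjusted p = 0.194 in limma and 0.00201 with the DT40 channels in the fit). Here DKO-S was the line that stood apart. DKO-R was at 0.48 relative to DT40 (adjusted p = 0.536, limma) and DKO-S at -2.34 (adjusted p = 0.00278, limma), and the DT40 cells had 14.03 and 14.10. ChEST1021P8 had 13.19 and 13.25 in DKO-R and 10.58 and 11.004 in DKO-S, a difference of 2.43 (adjusted p = 0.205, limma), and was not measured on both DT40 arrays. It has a dim and a bright spot, and the dim one was kept only in DKO-S culture A. With the bright spot alone the levels were 13.19 and 13.25 in DKO-R and 11.37 and 11.004 in DKO-S, a difference of 2.03 (adjusted p = 0.190, limma), and with no confidence filter, which keeps both spots on every array, the difference was 0.65.

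**Figure D2:**
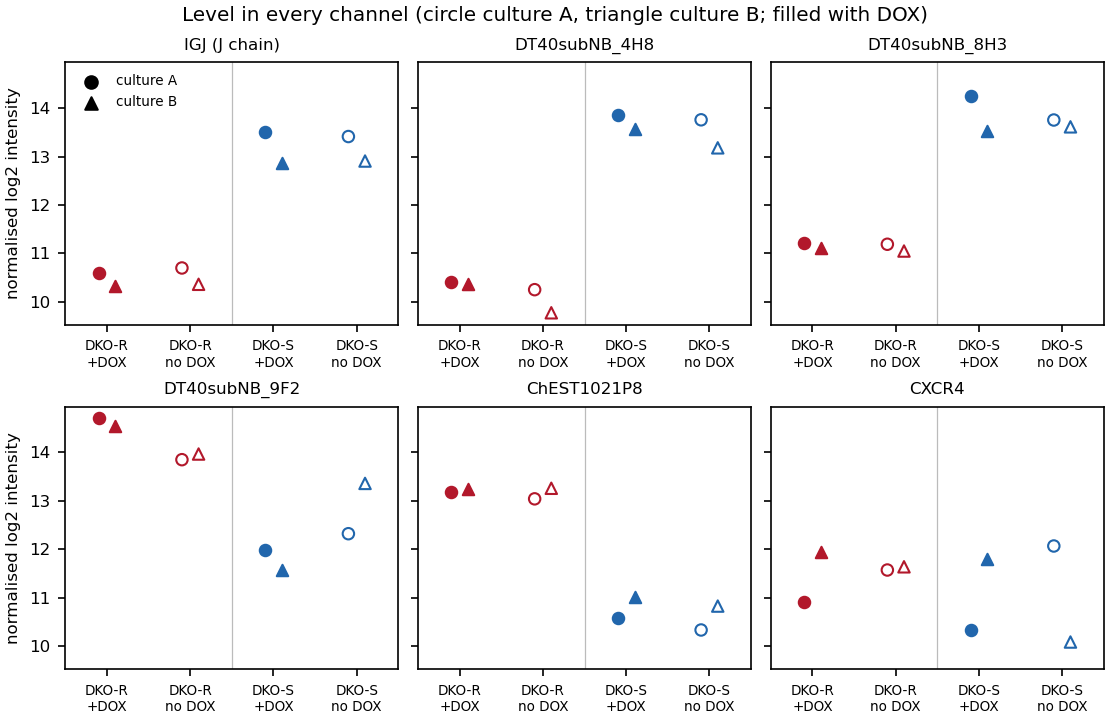
Normalised log2 intensity of 6 clones in each channel, with DKO-R left of DKO-S, filled symbols with DOX and open symbols without, circles for culture A and triangles for culture B. IGJ, DT40subNB_4H8 and DT40subNB_8H3 separate the lines with and without DOX alike, ChEST1021P8 is a mean of 2 spots in DKO-S culture A and of 1 spot elsewhere, DT40subNB_9F2 separates them further with DOX, and the CXCR4 values of the lines overlap.

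The clones on the array come from several EST libraries, which their IDs name. Clones whose ID begins with DT40subNB made up 47 of the 103 clones that were 2-fold or more higher in DKO-R in both cultures. That was 3.99% of the 1179 DT40subNB clones tested, against 1.44% of all clones, and 13 DT40subNB clones were lower, against 0.74% of all clones. Among ChEST clones, 48 of 4445 were higher (1.08%) and 31 were lower (0.70%). Among pat clones, 3 of 841 were higher (0.36%) and 5 lower (0.59%). The median level of DT40subNB clones was 12.41 and 12.28 in DKO-R and 12.43 and 12.17 in DKO-S, and the median difference of all 1179 was 0.00, against 0.01 over all clones. In the fit with the DT40 channels, 42 of the 75 clones called higher and 9 of the 37 called lower were DT40subNB clones. These were 3.88% and 0.83% of the 1083 DT40subNB clones tested, against 1.17% and 0.575% of all 6433 clones. The IDs do not say whether several of these clones carry the same gene, so 47 clones need not be 47 transcripts.

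The 47 DT40subNB clones differed by a median of 1.51 in culture A and 2.12 in culture B with DOX, and by 1.15 in culture A and 0.55 in culture B without it. Their DOX response, log2 of the level with DOX over that without it on the same array, had a median of 0.46 (culture A) and 0.45 (culture B) in DKO-R. In DKO-S it was 0.02 in culture A and -1.14 in culture B. Thus the 2 DKO-R cultures were alike and the 2 DKO-S cultures were not. The array of DKO-S culture B, which kept the fewest spots of the compared arrays, carried the lowest responses. Both responses were above 0 for 41 of the 47 clones in DKO-R and for 1 in DKO-S. Among all 7163 clones, both responses were above 0 for 1696 in DKO-R and for 1348 in DKO-S. Relative to DT40 cells with DOX, 45 of the 47 had a value, with a median of 0.22 in DKO-R and -1.50 in DKO-S. The 47 were chosen by the difference between the lines with DOX, so these medians are a description without a test.

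**Figure D3:**
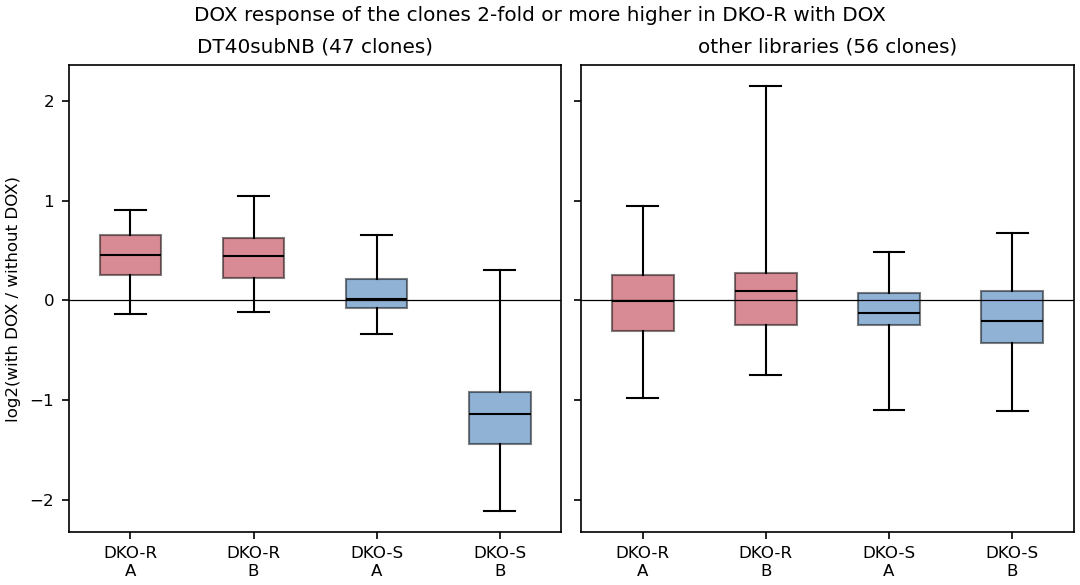
Box plots (box, quartiles; line, median; whiskers, range) of log2 with DOX over without DOX on each array for the clones 2-fold or more higher in DKO-R with DOX in both cultures, 47 DT40subNB clones at left and 56 of other libraries at right. The DT40subNB clones lie mostly above 0 on both DKO-R arrays, near 0 in DKO-S culture A and mostly below 0 in DKO-S culture B.

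The study named 47 clones, and their names are the only gene names used here. They were chosen by the study from the same series, so they are no independent sample of genes. All 47 were found on the array and 45 were measured on the 4 arrays. Between DKO-R and DKO-S with DOX, 0 of the 45 passed the adjusted threshold, against 0% of all clones, and 2 had an unadjusted p under 0.05, against 9.31% of all clones. In both cultures 10 were above 0 and 13 below 0, and 22 had opposite signs in cultures A and B. Among all 7163 clones, 2058 were above 0 in both, 1993 below 0 in both and 3112 had opposite signs. Their median difference was 0.12, against 0.01 over all clones, and ran from -2.72 (IGJ) to 0.66 (SNAPC5). No named clone was 2-fold or more higher in DKO-R in both cultures, and IGJ alone was 2-fold or more lower.

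Among the named clones of membrane traffic, AP1B1, a subunit of the clathrin adaptor of the trans-Golgi network, had 11.28 and 11.79 in DKO-R and 11.07 and 11.70 in DKO-S. Its difference was 0.15 (interval -0.62 to 0.92), smaller than the gap between the cultures of either line. The file pairs this clone, and that of the vacuolar proton pump subunit ATPase a3, with another EST record than the study does. ATPase a3 had a difference of -0.36 (interval -1.17 to 0.46). CD63, a tetraspanin of late endosomes, was at 0.55 in culture A and -0.96 in culture B, and CKAP4, an ER membrane protein, at 0.48 and -0.21. SRP54, a subunit of the signal recognition particle that brings nascent secretory proteins to the ER, was below 0 in both cultures, with 11.33 and 10.97 in DKO-R and 11.48 and 12.22 in DKO-S (-0.70, adjusted p = 0.605, limma, and -0.96 over the spots kept on all 4 arrays). Relative to DT40, SRP54 was at 0.57 in DKO-R (adjusted p = 0.478, limma) and at 1.27 in DKO-S (adjusted p = 0.0702, limma), and unlike IGJ it had its lowest levels in the DT40 cells (10.66 and 10.38).

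Among the named signalling clones, CXCR4 had 10.90 and 11.94 in DKO-R with DOX and 10.33 and 11.80 in DKO-S with DOX. Within each culture DKO-R was the higher line, by 0.57 in culture A and 0.14 in culture B, but the values of the lines overlapped. Over the spots kept on all 4 arrays the differences of CXCR4 were 0.99 in culture A and -0.0025 in culture B. The mean difference of 0.36 had an interval of -0.43 to 1.15 (adjusted p = 0.763, limma), which includes differences in either direction. This interval rests on 1 residual degree of freedom and a prior, so it sets no firm bound on the size. Without DOX, CXCR4 differed by -0.50 in culture A and 1.55 in culture B. Relative to DT40, CXCR4 was at -0.22 in DKO-R (adjusted p = 0.806, limma) and at -0.58 in DKO-S (adjusted p = 0.406, limma). MAP4K4, a kinase upstream of JNK, was at 0.65 (interval -0.13 to 1.43), above 0 in both cultures. MAP2K3, the kinase that activates p38, had 11.05 and 11.13 in DKO-R and 11.57 and 11.87 in DKO-S, with no overlap between the lines. Its difference of -0.63 did not pass (adjusted p = 0.589, limma), and relative to DT40 DKO-R was lower by 1.09 (adjusted p = 0.128, limma) with DKO-S at -0.46 (adjusted p = 0.524, limma). DUSP1, a phosphatase of MAP kinases, had opposite signs in the cultures (0.39 and -0.51).

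PNRC1, a coactivator of nuclear receptors, was the only named gene with several clones, and both clones were below 0 in both cultures. The clone pat.pk0061.e6f had 12.40 and 11.75 in DKO-R and 13.19 and 13.15 in DKO-S, without overlap, and the clone ChEST358J1 had 12.37 and 11.96 in DKO-R and 12.54 and 13.26 in DKO-S, also without overlap. The differences were -1.09 (adjusted p = 0.443, limma) and -0.74 (adjusted p = 0.594, limma). Without DOX the clones differed by -1.34 and -0.93.

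The integrin subunit ITGB5 (0.57), the actin-binding protein Tara (0.51) and the actin-capping protein (0.42) were all above 0 in both cultures. These are 3 of 3 clones of adhesion and actin, against 2058 of all 7163 clones, with 0 past the threshold. Without DOX on the same arrays, ITGB5 was at -0.51 in culture A and 1.85 in culture B. Tara was then at -0.25 and 1.58, and the actin-capping protein at 0.12 and 0.94. ITGB5 had 12.28 and 13.40 in DKO-R and 11.32 and 13.21 in DKO-S, so that each line's cultures differed more than the lines did. Relative to DT40 with DOX, ITGB5 was lower in DKO-S by 1.41 (adjusted p = 0.0414, limma), and in DKO-R it was at -0.83 (adjusted p = 0.241, limma). The chemokine CCL17, not counted among the 3, was at -0.12 in culture A and -0.17 in culture B.

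Of the 5 named immune clones, complement C4 was above 0 (0.39) and the LY6E-like clone below 0 (-0.14) in both cultures. NK-lysin, an antimicrobial peptide of cytotoxic lymphocytes, the beta-defensin Gal-1 alpha and CD274, the ligand of PD-1, were above 0 in culture A and below 0 in culture B. The difference of CD274, for example, was 0.57 in culture A and -0.91 in culture B.

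Of the named clones of transcription and RNA, 8 of 9 were measured. SNAPC5, of the complex that activates small nuclear RNA genes, was above 0 in both cultures (0.66, interval -0.13 to 1.44). NUP133, a nucleoporin, was below 0 in both, with 11.33 and 10.51 in DKO-R and 11.89 and 11.46 in DKO-S. The lines did not overlap, and the difference of -0.75 had an adjusted p of 0.541 (limma). At a confidence minimum of 0.60 these became -1.37 and 0.0260 (limma). That setting kept different spots of NUP133 on different arrays. It had a prior of 73.1 degrees of freedom and called 128 of 3489 clones (3.67%). Over the spots kept on all 4 arrays the difference of NUP133 was -1.08. The spots of NUP133 were unlike in the difference between the lines. In culture A with DOX, 2 spots had raw intensities of 2204 and 2371 in DKO-R, and 9498 and 9841 in DKO-S. The other 2 spots had 4693 and 4928 in DKO-R, and 4037 and 5917 in DKO-S. Of these last spots, that with a confidence of 0.29 in DKO-R culture B was left out of the -1.08. CHTOP (-0.32) and CDC73, a subunit of the Paf1 complex (-0.27), were also below 0 in both cultures. THUMPD2 (2.06 in culture A, -1.26 in culture B) and NFKBIE, an inhibitor of NF-kappaB (1.70 and -0.74), had the widest splits between the cultures among these. DDIT3, the stress transcription factor CHOP, had no value because its spots on the DKO-R arrays had a confidence of 0.23 to 0.28, and neither had CHMP7, of the ESCRT-III family, at 0.05 to 0.17 on the 4 arrays. The ribosomal protein RPL10A was at -0.45 in culture A and 1.52 in culture B, but in culture B only its bright spots were kept in DKO-R and both bright and dim spots in DKO-S. Over the spots kept on all 4 arrays RPL10A was at 0.03 and 0.05, and its mean difference of 0.53 became -0.50 with no confidence filter. The anion transporter SLC26A9 was at -0.84 and 0.12, as means over spots of unlike intensity. In culture A with DOX its dim spots had raw intensities of 1491 and 2056 in DKO-R, and 10335 and 7589 in DKO-S. Its bright spots had 24476 and 24168 in DKO-R, and 31447 and 27898 in DKO-S. The glycolytic enzyme GAPDH was at 0.23 and 0.33.

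**Figure D4:**
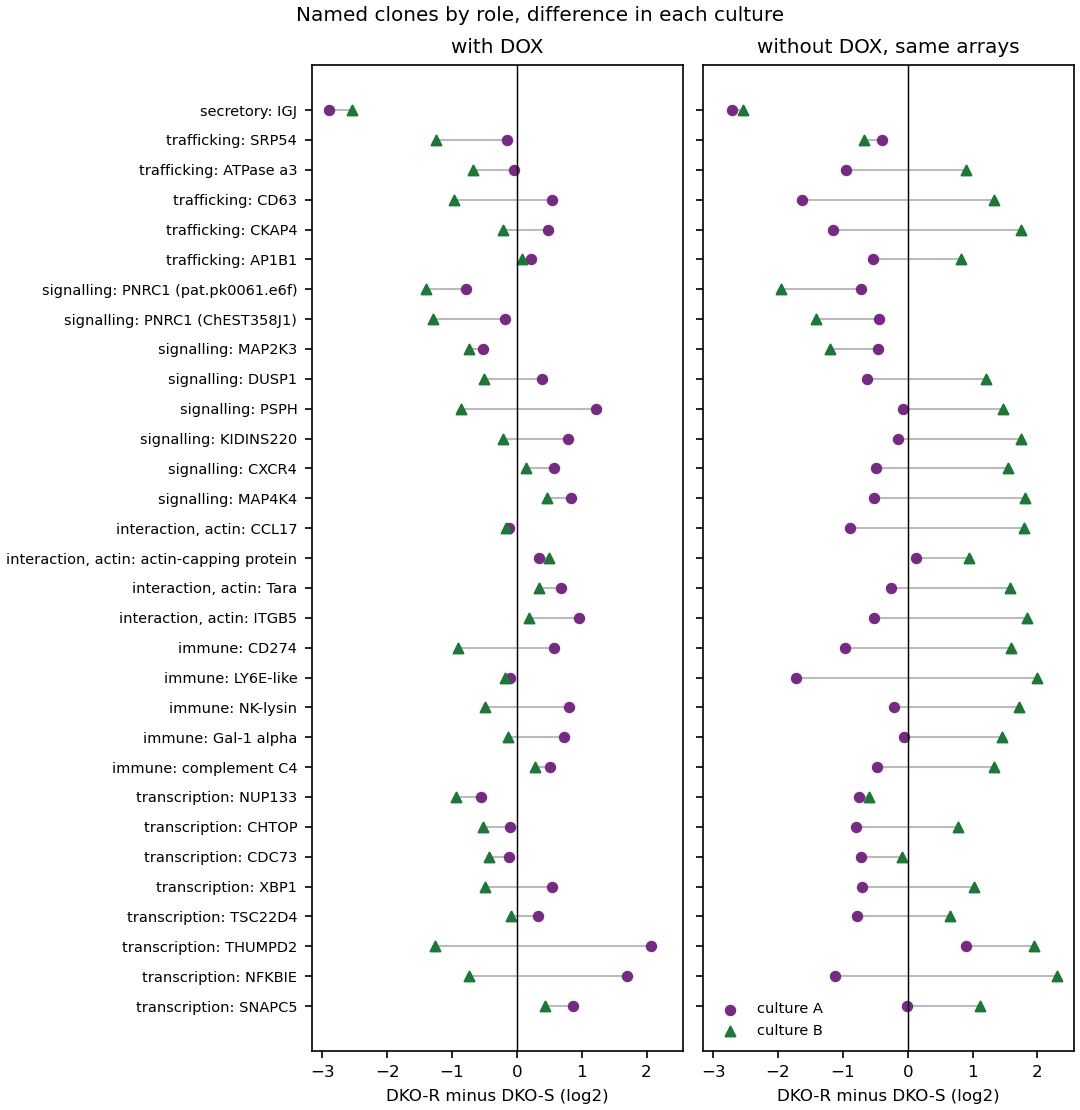
DKO-R minus DKO-S log2 difference of the named clones with a stated role, circles for culture A and triangles for culture B, with DOX at left and without DOX on the same arrays at right. With DOX, IGJ alone lies beyond -2, and many clones have culture A right of 0 and culture B left of it, an order that is turned round without DOX.

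Most named clones were brighter in Cy5 than in Cy3 whichever extract was in Cy5. The median normalised log2(Cy5/Cy3) of the 45 clones was 1.11 on the DKO-R array of culture A and 0.14 on that of culture B, and 2.21 and 1.66 on the DKO-S arrays of cultures A and B. The SD of all clones was 0.34 to 0.37 on the DKO-R arrays and 0.43 to 0.45 on the DKO-S arrays. The dye ratio of these clones thus differed between the arrays that the comparison sets against each other. With it went the median difference of the named clones, 0.48 in culture A and -0.43 in culture B with DOX, and -0.53 in culture A and 1.33 in culture B without DOX. Its part in the differences was not tested. The ratio of IGJ was near 0 on every array, at 0.10 and -0.04 in DKO-R and -0.09 and -0.04 in DKO-S.

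**Figure D5:**
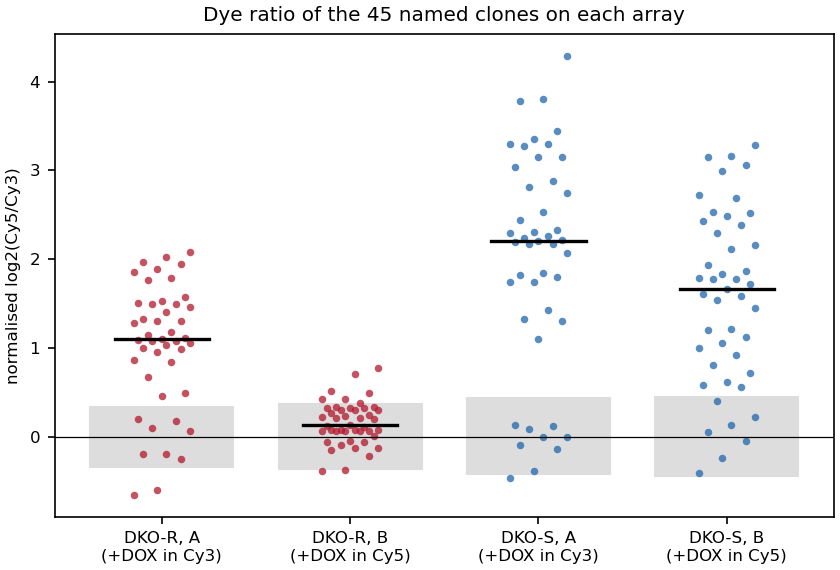
Normalised log2(Cy5/Cy3) of the 45 named clones on each of the 4 arrays (points), with their median (line) and the SD of all clones around their median (grey band). The medians are 1.11 and 0.14 on the DKO-R arrays and 2.21 and 1.66 on the DKO-S arrays.

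Whether a difference was there only under clathrin repression was examined in the channels without DOX of the same arrays, which are not independent of those with DOX. Between DKO-R and DKO-S without DOX, 0 of 7163 clones passed (0%, smallest adjusted p = 0.417, limma), 551 had an unadjusted p under 0.05 (7.69%), and 63 were 2-fold or more higher (0.88%) and 59 lower (0.824%) in both cultures. IGJ had 10.70 and 10.36 in DKO-R without DOX and 13.41 and 12.91 in DKO-S without DOX, a difference of -2.63. DT40subNB_4H8 (-3.46) and DT40subNB_8H3 (-2.57) were likewise about as far apart without DOX as with it, and ChEST1021P8, by its bright spot alone, differed by 2.13. Of the 103 clones higher with DOX, 100 were above 0 in both cultures without DOX and 33 were still 2-fold or more higher in both. Of the 53 lower with DOX, all 53 were below 0 and 26 were 2-fold or more lower.

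The difference between the DOX responses of DKO-R and DKO-S passed the threshold for 0 of 7163 clones (0%, smallest adjusted p = 0.999, limma), with 239 (3.34%) at an unadjusted p under 0.05. The smallest p belonged to DT40subNB_9F2. Its DOX response was 0.85 (culture A) and 0.58 (culture B) in DKO-R, and -0.33 and -1.79 in DKO-S. All DKO-R responses were thus above 0 and all DKO-S responses below it, and they differed by 1.78 ± 0.33 (SE, interval 1.03 to 2.52, adjusted p = 0.999 in limma). The clone was picked by this smallest p and, before, by its difference with DOX, whose channels enter the response. Its interval is thus a description and no test. For IGJ the responses were -0.10 and -0.04 in DKO-R and 0.09 and -0.04 in DKO-S, a difference of -0.09 (interval -0.69 to 0.51).

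Set against DT40 cells with DOX, DKO-R had 246 clones higher (3.82% of 6433) and 408 lower (6.34%) at an adjusted p under 0.15, and DKO-S had 316 higher (4.91%) and 557 lower (8.66%) by the same limma test. These comparisons share the DT40 channels. Of the 75 clones that the fit called higher in DKO-R against DKO-S, 59 were also lower in DKO-S than in DT40 and 7 were also higher in DKO-R than in DT40. Of the 37 called lower, 18 were higher in DKO-S than in DT40 and 15 were lower in DKO-R than in DT40. The median of the 75 was 0.30 in DKO-R and -1.40 in DKO-S relative to DT40, and that of the 37 was -0.77 in DKO-R and 0.92 in DKO-S. The same channels chose these clones, so the counts describe them and test nothing.

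On the direct arrays, which compare 1 extract of DKO-R with 1 of DKO-S without DOX, the ratio of 37 of the 45 named clones changed sign when the dyes were exchanged, against 3502 of 6335 clones in all (55.3%). Of the 6335, 1159 had the same sign on both direct arrays and the opposite sign in both DOX array cultures with DOX, and 509 had the same sign in all 4. DKO-R over DKO-S of CXCR4 was -2.63 on the array that had DKO-R in Cy3, and on the other it was 2.07. Of the 45 named clones, only 7 were above 0 in both orientations, IGJ, both PNRC1 clones, GLCCI1, MAP2K3, SRP54 and NUP133. Their log2 ratios were 0.56 to 3.03. All 7 were below 0 in both cultures on the DOX arrays, with and without DOX, with mean differences of -2.72 to -0.63 with DOX. DDIT3, not among the 45 because it had no value on the DOX arrays, was also above 0 in both orientations (1.02 and 1.29). IGJ was at 3.03 and 2.73 on the direct arrays and DT40subNB_4H8 at 3.37 and 3.03, of a size with their DOX array differences and of opposite sign. DT40subNB_9F2 was at 0.37 and 0.13. Of the 53 clones 2-fold or more lower with DOX, 46 were measured on both direct arrays, where 22 were above 0 and 6 below 0 in both orientations. Of the 103 higher, 95 were measured, and 29 were below 0 and 15 above 0 in both. Which set of labels holds cannot be told from these arrays.

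Lists of clathrin and its partners, iron uptake, apoptosis, ER stress, MAP kinase genes and cell type markers held few named clones, so no count over them was made. The clathrin list of 22 symbols had 1 named clone, AP1B1. The lists of iron uptake (13 symbols) and apoptosis (18 symbols) had 0, and so had the marker lists of T cells, macrophages and heterophils, erythroid cells and stroma. The 16 B cell markers had 1, IGJ, which was lower in DKO-R and in DT40 than in DKO-S. The B cell identity of these cells therefore could not be checked further with the names used here.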

How the data were processed

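RNA was measured on 2-colour EST arrays, with 2 arrays (cultures A and B) in each line. The authors extracted spots with BlueFuse (version 1.1) and deposited the intensity of each channel, without normalisation, and a spot confidence, which is a fraction. The genome build is not given in the sources used here. The deposited table of log2 values, whose centring is not stated, was not used. Cy3 and Cy5 were assigned to channels from the labels. As to labelled RNA, 20 µg is stated in the methods and 2 µg in the labels. Control spots and spots of confidence under 0.30 were left out, within-array loess (span 0.3) and Aquantile scaling over the 4 arrays were applied with limma 3.58.1 in R 4.3.3, where the authors used a global normalisation, and spots of an ID were averaged as log2 values. limma (lmFit, eBayes) fitted line and dye to the 4 channels with DOX, with 1 residual degree of freedom and a prior of 5.79 degrees of freedom. Clones passed where the Benjamini-Hochberg adjusted p was under 0.15 over all clones, the false discovery rate of the methods. The dye term is also the culture and the number in the array titles. This design, not a test, makes the block, and deviations of same-numbered arrays correlated with r = 0.16 across clones. Nothing says that cultures A and B were separate beyond their label as biological replicates, so p values measure the spread between these extracts. DT40 was compared in a fit of 3 lines and dye, normalised over 6 arrays. Named clones are the 47 of the study and 2 unnamed clones in each direction. The rule took the unnamed ones from clones past the threshold, and as 0 passed, those of smallest p stand in. Members and lists were chosen with earlier results of these data known. Clones were matched by ID, not through the RefSeq table of symbols. The fits were tested on simulated data, where the fit to 4 channels made a larger share of false calls than its threshold allows, a limit on its adjusted p values. Alternatives were other normalisations, confidence minimums, filters, thresholds and fits, leaving out each culture and, chosen after seeing the data, only spots kept on all 4 arrays.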

Additional observations from a re-analysis of the deposited data

Results flagged for a closer look

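DT40subNB_9F2, a clone without a gene name, was singled out because its DOX response went up on both DKO-R arrays (0.85 and 0.58) and down on both DKO-S arrays (-0.33 and -1.79). The responses differed by 1.78 (log2), and the test of this difference across all clones gave an adjusted p of 0.999 (limma). The clone had already been picked by its difference with DOX, whose channels enter the response. Groups of 2 arrays are too small for a test of single samples that stand apart.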

How the results depend on the processing

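The count of clones past the threshold with DOX varied with the setting. It was 0 as reported, and also under global centring, quantile normalisation, block centring, no confidence filter, without the dimmest 25% of clones and at an adjusted p under 0.05. It was 4 with normalisation over all arrays, 5 with no replicate block (line alone, culture and dye not blocked), 112 with the DT40 channels, 128 at a confidence of 0.60, 2 (both lower, DT40subNB_4H8 among them) over only the spots kept on all 4 arrays, an alternative chosen after seeing the data, and 1 (of 165 clones) with the other dye orientation, weak arrays included. The prior had 5.79 degrees of freedom as reported, 15.3 with DT40 and 73.1 at a confidence of 0.60. Leaving out 1 culture in the DT40 fit, where the lone channel is assumed to vary like the others, gave 37 (without DKO-R culture B) to 238 (without DKO-S culture A). The 2-fold counts were 103 higher and 53 lower of 7163 clones as reported. They became 213 and 173 of 12856 without the confidence filter, and 47 and 18 of 3489 at 0.60. With the weak arrays they were 10 and 0 of 165. Block centring left 32 lower. The number of clones tested thus differed between these settings. Without DOX, 2 clones passed at a confidence of 0.60, and in the difference between DOX responses 59 without the filter. The cause of these shifts was not tested. The named differences kept their sign under quantile normalisation, with the DT40 channels and over the spots kept on all 4 arrays, and 14 of 48 changed it without DKO-S culture A, 13 without DKO-R culture A, 9 without either culture B, 5 of 49 with block centring, 4 of 41 at a confidence of 0.60, 2 of 49 with global centring, 1 of 49 without the filter and 2 of 6 with the weak arrays, where none had passed as reported. Without DKO-S culture B, THUMPD2 was at 2.05, against 0.42 with both cultures in the fit with DT40. IGJ ran from -3.08 to -2.39 when a culture was left out.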
